A study of Mus musculus with 18 samples.

Results

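The 38 genes described here encode the enzymes of glycolysis, gluconeogenesis and the first steps of the pentose phosphate pathway, together with regulators of pyruvate and fructose 2,6-bisphosphate. They were taken from a list of 38 symbols by keeping every gene with 10 or more counts summed over 18 libraries. All 38 were kept, of 32285 genes in the deposited count table. Aldoa was the single symbol borne by more than 1 identifier, and the second identifier fell short of the minimum. All 38 also passed the filter on low counts that preceded the tests. By role, 21 genes were grouped as glycolytic (hexokinases, phosphofructokinase-1 subunits, the reversible steps, pyruvate kinases and lactate dehydrogenase subunits), 5 as gluconeogenic (Pck1, Fbp1, Fbp2, G6pc and G6pc3) and 12 as other. The enzymes of the reversible steps work in both directions, so their place among the glycolytic genes is a convention.

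RNA was sequenced from cystic regions with high F4/80 signal (F4/80-high), cystic regions with low F4/80 signal (F4/80-low) and non-cystic regions of frozen mouse kidneys. F4/80 is a macrophage surface protein. Each region type had 6 libraries, 2 from each of 3 numbered kidneys. All came from male C57BL/6 mice of the iKspCre-Pkd1del line, labelled Pkd1 KO, in which a homozygous, tamoxifen-inducible Cre active in the kidney removes the loxP-flanked exons 2 to 11 of Pkd1. Tamoxifen was given by oral gavage at 12.5 mg/kg on postnatal days 18 and 19, and kidneys were taken in the mild cystic phase seen by MRI. The labelled age was 269 for kidneys 1 and 3 and 297 for kidney 2, with no unit. The non-cystic regions come from the same induced kidneys as the cystic ones, and there was no wild-type or untreated group. The comparisons are therefore between regions of mutant kidneys. The extent of the deletion could not be checked by region or against a control, and it may differ between region types. The labels do not say whether the 3 kidneys came from 3 mice. With the kidney as a term in the fit, p-values measure how differences between region types vary among these kidneys.

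Glycolysis breaks glucose down to pyruvate, with control at hexokinase, phosphofructokinase-1 and pyruvate kinase, and lactate dehydrogenase interconverts pyruvate and lactate. Gluconeogenesis runs the reversible steps backwards and bypasses the irreversible ones with phosphoenolpyruvate carboxykinase, fructose-1,6-bisphosphatase and glucose-6-phosphatase. In the kidney it is a function of the proximal tubule, which draws mainly on lactate, glutamine and fatty acids and has little hexokinase. The oxidative pentose phosphate enzymes make NADPH, and pyruvate dehydrogenase kinases hold pyruvate back from the mitochondrial oxidation step.

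Library totals were 5841975 to 8662288 counts in F4/80-high, 7186518 to 9188813 in F4/80-low and 5366651 to 9002054 in non-cystic regions. Levels are given as CPM, read counts scaled to library size with the fit's normalization factors, for each kidney from the sum of its 2 libraries. CPM of single libraries have scaling factors of their own and need not bracket those of the sums. Macrophage markers follow from how the regions were chosen and serve as a check of the labels: the summed CPM of 15 markers was 2793 to 6626 in F4/80-high, 539 to 669 in F4/80-low and 140.0 to 192 in non-cystic kidneys. All 20 proximal tubule markers had counts in every region type, with sums of 1215 to 8441 CPM in F4/80-high, 36764 to 65778 CPM in F4/80-low and 44933 to 60606 CPM in non-cystic kidneys.

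The windows of 250 bases before the RefSeq start of Pck1, G6pc, Khk and Fbp1, the 4 genes with the largest decreases, and of the related Fbp2, which did not pass a test, are shown first (RefSeq windows on GRCm38.p6, 5′ to 3′ on the gene's strand). Capitals mark matches on either strand to CAAAGT (HNF4 type), ACGTCA (the core of the cAMP response element) and ACGTG (the hypoxia response core, also held by the E-box CACGTG). The cAMP and hypoxia cores have 4 letters in common. The Pck1 window lies at chr2:173152823-173153072 on the plus strand, that of G6pc at chr11:101367466-101367715 on the plus strand, and that of Khk at chr5:30921309-30921558 on the plus strand. The windows of Fbp1 and Fbp2 lie on the minus strand at chr13:62888283-62888532 and chr13:62858401-62858650. For G6pc and Khk the RefSeq start differs from the start in the GENCODE annotation.
Pck1: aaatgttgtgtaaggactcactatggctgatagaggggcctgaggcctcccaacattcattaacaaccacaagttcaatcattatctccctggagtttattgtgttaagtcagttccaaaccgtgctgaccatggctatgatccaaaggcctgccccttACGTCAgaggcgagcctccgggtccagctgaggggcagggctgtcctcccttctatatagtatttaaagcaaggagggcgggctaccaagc
G6pc: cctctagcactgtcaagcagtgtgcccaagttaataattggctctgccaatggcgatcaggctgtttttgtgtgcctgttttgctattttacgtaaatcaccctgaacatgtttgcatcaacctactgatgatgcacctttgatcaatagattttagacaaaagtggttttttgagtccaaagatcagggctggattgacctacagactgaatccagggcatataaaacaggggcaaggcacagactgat
Khk: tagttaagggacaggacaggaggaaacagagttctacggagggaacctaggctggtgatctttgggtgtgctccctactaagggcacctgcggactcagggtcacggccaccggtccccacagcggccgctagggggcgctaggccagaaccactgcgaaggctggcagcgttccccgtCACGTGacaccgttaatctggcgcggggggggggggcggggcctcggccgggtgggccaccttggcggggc
Fbp1: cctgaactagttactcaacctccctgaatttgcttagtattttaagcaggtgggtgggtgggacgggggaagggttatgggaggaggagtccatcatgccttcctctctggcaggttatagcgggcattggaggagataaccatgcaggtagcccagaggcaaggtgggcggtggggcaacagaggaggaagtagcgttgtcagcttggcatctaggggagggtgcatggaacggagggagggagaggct
Fbp2: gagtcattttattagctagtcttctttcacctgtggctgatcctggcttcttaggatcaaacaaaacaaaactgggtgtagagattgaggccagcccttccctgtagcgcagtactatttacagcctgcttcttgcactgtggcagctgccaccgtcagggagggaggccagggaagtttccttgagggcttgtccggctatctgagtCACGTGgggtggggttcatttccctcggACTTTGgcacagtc

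All 38 members had at least 1 such window, 59 windows in all. ACGTCA was found in 5 of the 59 windows (8.47%), those of Pck1 and Hk2 among them, beside 6.47% of 32851 windows of all genes. CAAAGT was found in 7 of the 59 (11.9%), beside 12.6% of all windows, and ACGTG in 19 (32.2%), beside 16.6%. CACGTG was found in 8 (13.6%), beside 6.02% of all windows. Searches not capitalised above found GGGCGG in 25 windows (42.4%, beside 32.7% of all windows) and TATAAA in 4 (6.78%, beside 12.4%). Windows of 1 gene can overlap. The windows of Fbp1 and G6pc held none of the capitalised motifs. A match describes letters and not a bound site.

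In F4/80-high against non-cystic regions, 15 of the 38 genes were lower, 3 were higher and 20 were not called. The lower genes were Pck1, Fbp1, G6pc, Khk, Pdk2, Pdk3, Pfkm and 8 of 10 enzymes of the reversible steps, and the higher ones were Hk2, Hk3 and Pfkp. Over all 16034 genes tested, 19.7% were called higher and 19.5% lower. A call is a Benjamini-Hochberg adjusted p below 0.05 in edgeR's quasi-likelihood test over all these genes, and every adjusted p below comes from this test. In F4/80-high against F4/80-low regions, 12 members were lower and 1, Hk3, was higher, beside 14.0% of all genes lower and 10.3% higher. The 12 were Pck1, Fbp1, G6pc, Khk, Pdk2, Pfkm, Ldha, Gpi1, Aldoa, Tpi1, Gapdh and Pgk1. In F4/80-low against non-cystic regions no member was called in either direction by edgeR, beside 1.51% of all genes higher and 0.0249% lower. At an unadjusted p below 0.05, 3 members were higher and 1 was lower there, beside 9.35% of all genes higher and 2.35% lower. DESeq2's Wald test called 2 higher and 0 lower, beside 3.75% and 0.462% of all genes.

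**Figure D1:**
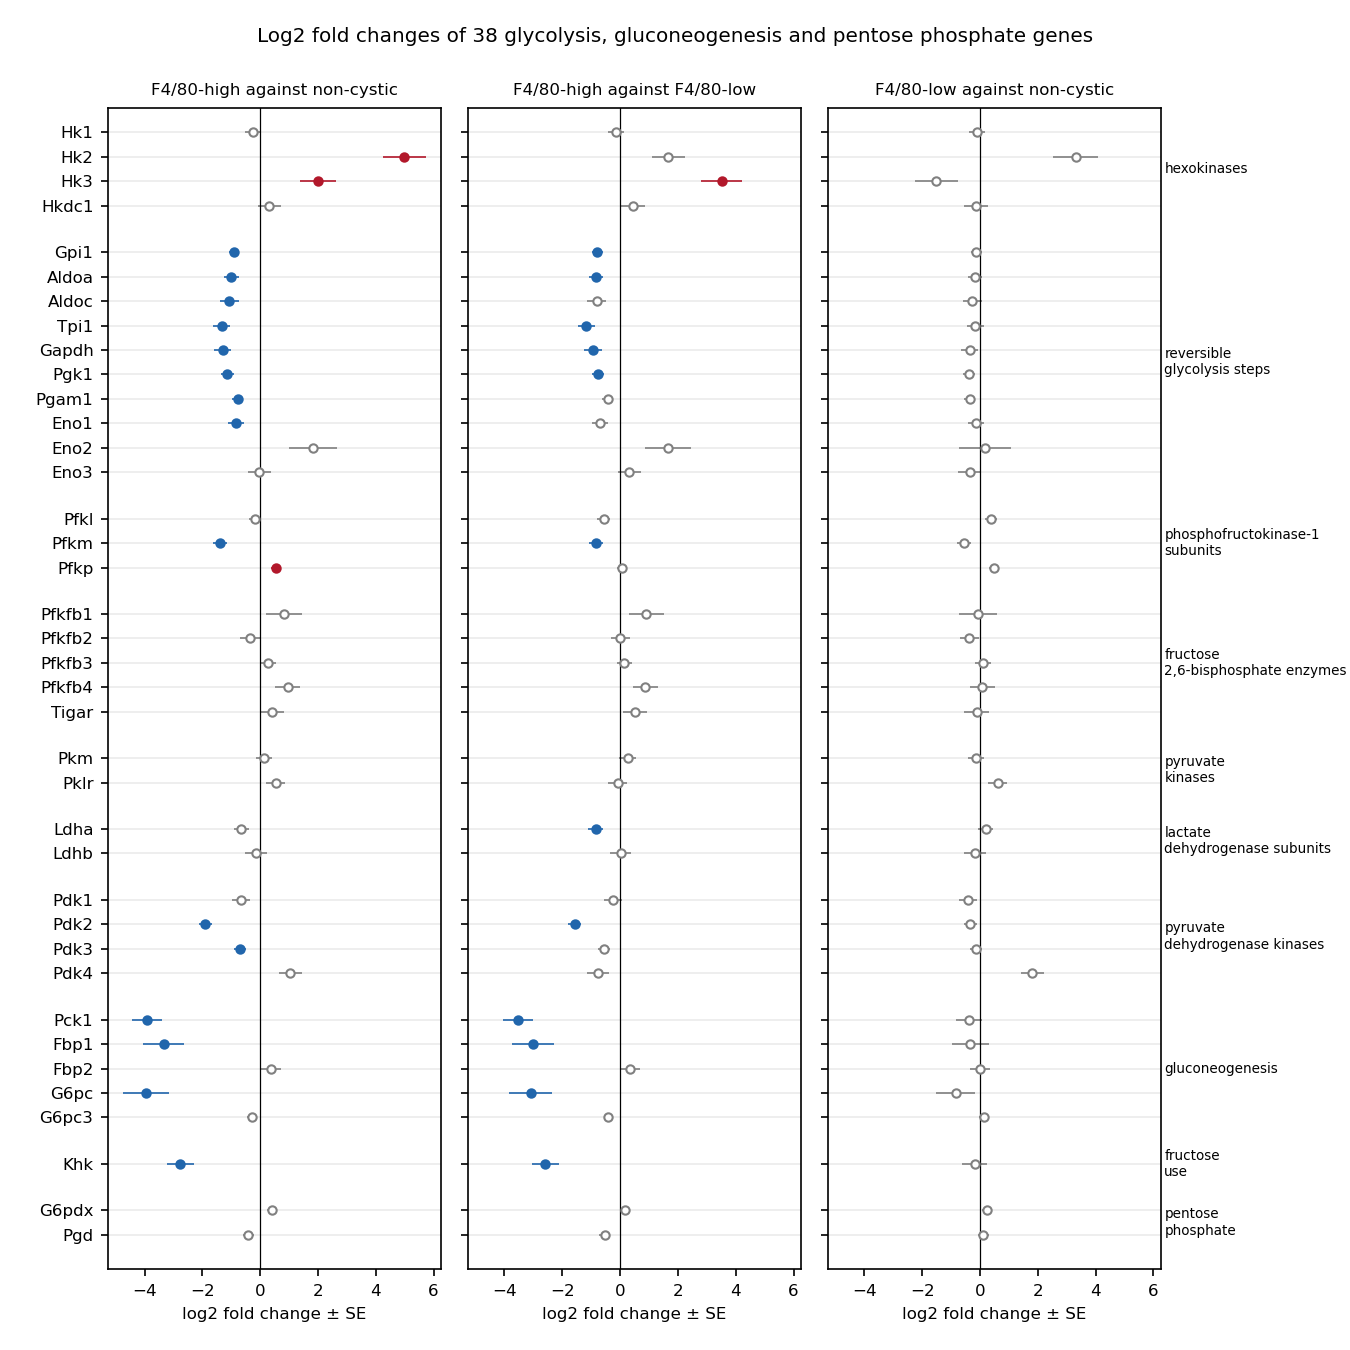
Log2 fold change of each of the 38 genes in edgeR's fit, in panels from left to right for F4/80-high against non-cystic, F4/80-high against F4/80-low and F4/80-low against non-cystic regions; bars are SE, filled red points were called higher, filled blue points lower and open grey points not called. Pck1, Fbp1, G6pc and Khk lie between -3.94 and -2.58 in the left and middle panels, Hk2 lies at 4.99 in the left panel, and no point of the right panel is filled; with total counts as the scaling the median glycolytic value of the left panel is 0.37 in place of -0.25.

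The median log2 fold change of the gluconeogenic genes was -3.34 in F4/80-high against non-cystic, -3.00 in F4/80-high against F4/80-low and -0.34 in F4/80-low against non-cystic regions. The glycolytic genes had medians of -0.25, -0.42 and -0.14 in the same comparisons, the other 12 had -0.04, -0.12 and -0.09, and all genes tested had 0.04, 0.04 and 0.00. The sign of the glycolytic median depended on the scaling. With total counts in place of the trimmed mean of M values, the median of all genes moved to 0.65 in F4/80-high against non-cystic and to 0.52 against F4/80-low regions, and the glycolytic medians turned to 0.37 and 0.07, below the median of all genes in both. The gluconeogenic medians were -2.80 and -2.54 with total counts. That scaling called 9 members higher and 8 lower against non-cystic, and 3 higher and 6 lower against F4/80-low regions. Over all genes it gave 6608 higher and 1463 lower against non-cystic, beside 3156 and 3133 in the main scaling, and 4211 and 1120 against F4/80-low regions, beside 1649 and 2246. Upper quartile factors gave 3621 higher and 2685 lower against non-cystic, and 2101 and 1855 against F4/80-low regions.

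The count of calls also rested on which kidneys were in the fit. Without kidney 1, 7 of the 18 members called in F4/80-high against non-cystic regions kept their call (Hk2, Pfkm, Pgk1, Pdk2, Pck1, Fbp1 and Khk), and 11 had adjusted p of 0.0671 to 0.324. Without kidney 2, 13 kept it, and without kidney 3, 17 did. Of the 13 members called in F4/80-high against F4/80-low regions, 1 (Pdk2) kept its call without kidney 1, 7 without kidney 2 and 9 without kidney 3. Calls over all genes fell as well. Against non-cystic regions 1737 genes were higher and 1622 lower without kidney 1, beside 3156 and 3133 with all kidneys. The counts were 2188 and 2161 without kidney 2, and 2976 and 2881 without kidney 3. Against F4/80-low regions they were 467 and 521 without kidney 1, beside 1649 and 2246 with all kidneys. There they were 913 and 1353 without kidney 2, and 1168 and 1756 without kidney 3. No called member changed sign without a kidney or a library.

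Pck1, Fbp1 and G6pc, which catalyse the irreversible steps of gluconeogenesis in the proximal tubule, were far lower in F4/80-high regions than in either other region type. Pck1, the cytosolic phosphoenolpyruvate carboxykinase (chr2:173153048-173159273), had 35.7, 81.9 and 11.2 CPM in F4/80-high regions of kidneys 1, 2 and 3, against 327, 518 and 411 CPM in F4/80-low and 512, 598 and 505 CPM in non-cystic regions. Every F4/80-high library, at 3.91 to 116 CPM with a median of 35.7, lay below every F4/80-low library (233 to 645 CPM, median 385) and every non-cystic library (431 to 640 CPM, median 562). For comparisons of F4/80-high regions, here and below, the share of all genes separated in this way was not counted, so separation describes the gene alone. The log2 fold change of Pck1 was -3.92 ± 0.52 (SE) against non-cystic (adjusted p = 0.000781) and -3.53 ± 0.51 against F4/80-low regions (adjusted p = 0.00289). Both values moved with single kidneys. Without kidney 2 they were -4.56 and -4.13, and without kidney 3 the value against F4/80-low regions was -2.91. The call against F4/80-low regions was lost without kidney 1 (adjusted p = 0.0501) and with the libraries labelled 1 alone (adjusted p = 0.0518).

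Fbp1, the fructose-1,6-bisphosphatase of liver and kidney (chr13:62864753-62888282), had 338, 260.5 and 24.8 CPM in F4/80-high regions, against 1451, 1097 and 1301 CPM in F4/80-low and 2300, 1617 and 1312 CPM in non-cystic regions. The F4/80-high region of kidney 3 was the lowest by a wide margin. All F4/80-high values were below all others, while F4/80-low and non-cystic regions overlapped. The log2 fold change was -3.34 ± 0.72 against non-cystic (adjusted p = 0.00753) and -3.00 ± 0.72 against F4/80-low regions (adjusted p = 0.0205). Without kidney 3 the values were -2.70 and -2.09, and against F4/80-low regions it was -3.65 without kidney 2 and -3.59 without kidney 1, where the call was lost (adjusted p = 0.0829). The call against F4/80-low regions was also lost without the first library of F4/80-low kidney 2 or the second of F4/80-high kidney 3, with adjusted p from 0.0515. With no filter on low counts neither call of Fbp1 passed (adjusted p = 0.0535 against non-cystic and 0.102 against F4/80-low regions), nor did either with the libraries labelled 1 alone (adjusted p = 0.0813 and 0.139). With only the compared region types in the fit the call against F4/80-low regions was lost as well (adjusted p = 0.0557).

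G6pc, the catalytic subunit of glucose-6-phosphatase in liver and kidney (chr11:101367561-101377903), had 33.5, 44.2 and 4.64 CPM in F4/80-high regions, against 333, 172 and 151 CPM in F4/80-low and 499, 191 and 392 CPM in non-cystic regions. Its level varied among kidneys within each region type, and all F4/80-high values were below all others. Its log2 fold change was -3.94 ± 0.80 against non-cystic (adjusted p = 0.00883) and -3.10 ± 0.76 against F4/80-low regions (adjusted p = 0.0284). The value against non-cystic regions was -5.06 without kidney 2 and -2.96 without kidney 3, and that against F4/80-low regions -4.00 without kidney 2. The call against non-cystic regions was lost without kidney 1 (adjusted p = 0.0671), and that against F4/80-low regions without kidney 1, the first library of F4/80-low kidney 2, or the second of F4/80-high kidney 2 or 3, with adjusted p of 0.0612 to 0.14. Both calls of G6pc were also lost with no filter on low counts (adjusted p = 0.0633 against non-cystic and 0.136 against F4/80-low regions) and with the libraries labelled 1 alone (adjusted p = 0.0764 and 0.157).

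**Figure D2:**
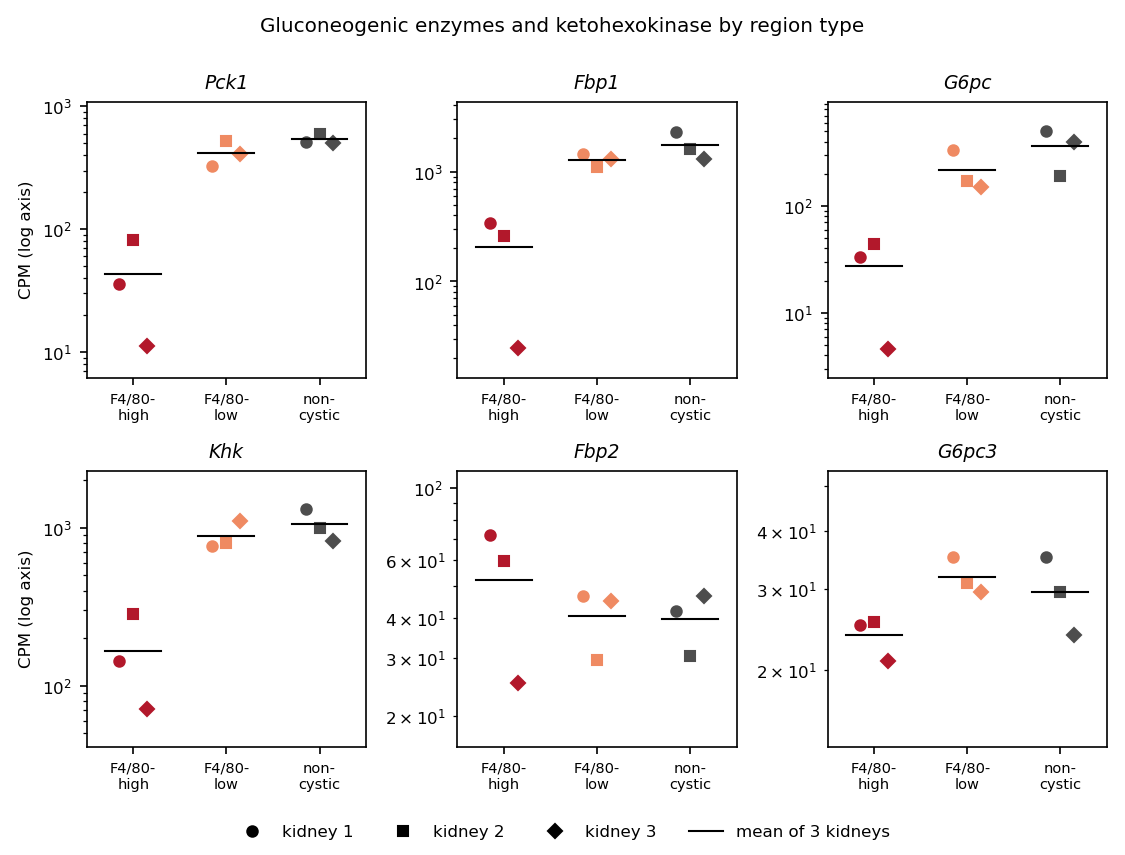
Level in CPM on a log axis of Pck1, Fbp1, G6pc, Khk, Fbp2 and G6pc3 in F4/80-high, F4/80-low and non-cystic regions; points are the 3 kidneys and bars their mean. Pck1 averages 42.9 CPM in F4/80-high, 419 CPM in F4/80-low regions and 538 CPM in non-cystic regions, while the points of Fbp2 overlap between the region types.

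The second isoforms of both phosphatase steps did not pass the test. Fbp2, the muscle type of fructose-1,6-bisphosphatase and a neighbour of Fbp1 on the same chromosome, had 71.6, 59.9 and 25.3 CPM in F4/80-high regions, against 46.7, 29.7 and 45.1 CPM in F4/80-low and 42.1, 30.5 and 46.6 CPM in non-cystic regions. It was highest in kidneys 1 and 2 of the F4/80-high regions and lowest in kidney 3, and its log2 fold change against non-cystic regions was 0.37 ± 0.35 (adjusted p = 0.45). With total counts as the scaling it was called higher, at 0.94 (adjusted p = 0.0348), above the median of all genes under that scaling. Without kidney 3 Fbp2 was also called higher, against non-cystic and against F4/80-low regions. G6pc3, the glucose-6-phosphatase subunit found in most tissues, had 25.1, 25.4 and 21.0 CPM in F4/80-high regions, against 35.1, 30.9 and 29.6 CPM in F4/80-low and 35.1, 29.6 and 23.8 CPM in non-cystic regions, with a log2 fold change of -0.29 ± 0.15 against non-cystic regions (adjusted p = 0.155). In F4/80-high against non-cystic regions, the log2 change of Fbp1 minus that of Fbp2 was -3.53, -3.60 and -4.84 in the 3 kidneys. For G6pc minus G6pc3 it was -3.41, -1.89 and -6.19. An exact two-sided sign-flip test over 3 kidneys cannot go below p = 0.25, the value of both.

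Per kilobase of exon, Fbp2 made up 31.7% ± 19.6 (SD, n = 3) of the 2 fructose-1,6-bisphosphatase transcripts in F4/80-high regions, against 3.50% ± 0.42 in F4/80-low and 2.72% ± 1.06 in non-cystic regions. G6pc3 made up 55.4% ± 24.2 of G6pc and G6pc3 in F4/80-high, against 14.7% ± 3.88 in F4/80-low and 9.21% ± 4.50 in non-cystic regions. In both pairs the F4/80-high region of kidney 3 had the largest share of the second isoform, at 54.2% and 83.1%.

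Proximal tubule markers moved with these genes. Of 20 such markers, 19 were lower in F4/80-high against non-cystic regions, with a median log2 fold change of -3.17 and a range of -5.03 to -1.27, and 18 were lower against F4/80-low regions, with a median of -3.00. In F4/80-low against non-cystic regions edgeR called none of the 20, with 0 higher and 2 lower at an unadjusted p below 0.05. Their summed level was 4588, 8441 and 1215 CPM in F4/80-high regions of kidneys 1, 2 and 3, against 36764, 38833 and 65778 CPM in F4/80-low and 60606, 45264 and 44933 CPM in non-cystic regions. In tissue pieces, fewer cells of a type and less RNA per cell cannot be told apart.

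Set against this sum, Pck1 had overlapping values in the 3 region types. For each 1000 CPM of the summed markers there were 7.77, 9.71 and 9.18 CPM of Pck1 in F4/80-high regions, against 8.90, 13.3 and 6.24 in F4/80-low and 8.44, 13.2 and 11.2 in non-cystic regions. G6pc had 7.29, 5.24 and 3.82 in F4/80-high, against 9.05, 4.43 and 2.30 in F4/80-low and 8.23, 4.22 and 8.72 in non-cystic regions. Fbp1 had 73.6, 30.9 and 20.4 in F4/80-high, against 39.5, 28.3 and 19.8 in F4/80-low and 37.9, 35.7 and 29.2 in non-cystic regions. The values of all 3 genes overlapped between the region types. Kap, an androgen-regulated proximal tubule gene, held 30.4% to 52.5% of the sum in F4/80-high, 49.9% to 67.8% in F4/80-low and 53.4% to 54.1% in non-cystic kidneys. With the other 19 markers alone, Pck1 had 11.2, 20.4 and 15.1 in F4/80-high, against 17.8, 33.7 and 19.4 in F4/80-low and 18.3, 28.4 and 24.5 in non-cystic regions, with an overlap of the groups. Within each kidney, however, Pck1 per 19 markers was lower in F4/80-high than in both other region types, and per 20 markers it was lower than in non-cystic regions in all 3 kidneys and than in F4/80-low regions in 2. G6pc per 19 markers was 10.5, 11.0 and 6.27 in F4/80-high, below the 18.1, 11.2 and 7.14 in F4/80-low regions of the same kidneys. In non-cystic regions it was 17.9, 9.05 and 19.0, lower than F4/80-high in kidney 2. Fbp1 per 19 markers was 106, 65.0 and 33.5 in F4/80-high, against 78.8, 71.5 and 61.5 in F4/80-low and 82.4, 76.7 and 63.6 in non-cystic regions. Over 3 kidneys an exact test of such a difference cannot go below p = 0.25.

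**Figure D3:**
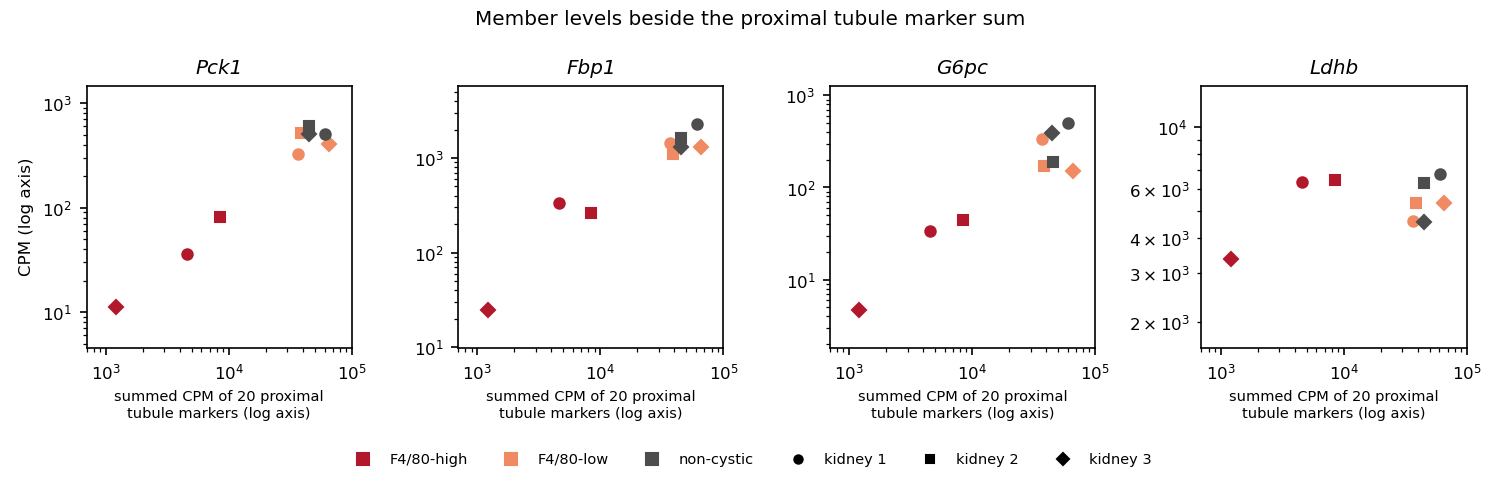
Level in CPM of Pck1, Fbp1, G6pc and Ldhb against the summed CPM of 20 proximal tubule markers, both on log axes; each point is 1 kidney and region type. Points of F4/80-high regions lie at sums of 1215 to 8441 CPM and have the lowest levels of the first 3 genes, while Ldhb stays between 3367 and 6759 CPM over the whole range of the sum.

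Khk, the ketohexokinase that starts fructose breakdown in proximal tubule and liver (chr5:30921431-30931248), had 143, 286 and 70.9 CPM in F4/80-high regions, against 772, 800 and 1101 CPM in F4/80-low and 1327, 997 and 830 CPM in non-cystic regions. No F4/80-high library, at 34.6 to 356 CPM, reached the lowest library of F4/80-low (517 CPM) or of non-cystic regions (720 CPM). On the log2 scale the fitted fold change was -2.77 ± 0.47 against non-cystic (adjusted p = 0.00178) and -2.58 ± 0.47 against F4/80-low regions (adjusted p = 0.00557). Without kidney 2 the values were -3.37 and -3.25, without kidney 3 the value against F4/80-low regions was -1.91, and that call was lost without kidney 1 (adjusted p = 0.0624). For each 1000 CPM of the 20 proximal tubule markers there were 31.1, 33.9 and 58.3 CPM of Khk in F4/80-high regions, above the 21.0, 20.6 and 16.7 in F4/80-low and the 21.9, 22.0 and 18.5 in non-cystic regions. With Kap left out of the sum the F4/80-high value of kidney 1, 44.7, fell within the range of the other regions, 40.2 to 52.1.

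Hexokinases commit glucose to the cell by phosphorylating it. Hk2, the inducible form known from muscle and from growing cells (chr6:82725025-82774454), was nearly absent from non-cystic regions, with 6 counts in all and 0 to 2 per library. It had 2.79, 3.27 and 10.4 CPM in F4/80-high regions, against 0.612, 2.96 and 1.58 CPM in F4/80-low and 0.177, 0.22 and 0.0776 CPM in non-cystic regions. Every F4/80-high and every F4/80-low library was above every non-cystic one. The fitted log2 fold change was 4.99 ± 0.75 in F4/80-high against non-cystic regions (adjusted p = 0.000942), and its size rests on few counts: it was 3.99 without kidney 3 and 5.60 without the first library of non-cystic kidney 1, with the call kept in both. Against F4/80-low regions it was 1.67 ± 0.58 (adjusted p = 0.0598), and in F4/80-low against non-cystic regions 3.31 ± 0.77 (adjusted p = 0.0775). Of 34 alternatives, 10 called Hk2 higher against F4/80-low regions. In F4/80-low against non-cystic regions 5 of the 33 alternatives that tested Hk2 called it higher. The summed level of 8 injured tubule markers was 82750, 65367 and 60518 CPM in F4/80-high regions of kidneys 1, 2 and 3. It was 7523, 47095 and 16118 CPM in F4/80-low and 1435, 2930 and 2362 CPM in non-cystic regions. Single F4/80-low libraries ranged from 2735 to 100975 CPM. In F4/80-low regions the kidneys had the same order in this sum as in Hk2. An order of 3 kidneys is no test of a link, and 1 library held 32 of the 75 counts of Hk2 in F4/80-low regions. In F4/80-high regions the sum was lowest in kidney 3, where Hk2 and the macrophage sum were highest. In F4/80-high against non-cystic regions, 9 of 9 fibroblast and matrix markers tested and 15 of 15 macrophage markers were also higher. The part of these markers in the result was not tested.

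Hk3, a hexokinase known from leukocytes (chr13:55005985-55021385), had 3.16, 1.24 and 3.31 CPM in F4/80-high regions, against 0.204, 0.131 and 0.376 CPM in F4/80-low and 0.53, 0.0732 and 1.94 CPM in non-cystic regions. The counts were 145 in F4/80-high, 10 in F4/80-low and 32 in non-cystic regions, and 24 of the 32 came from 1 library, the first of kidney 3. The fitted difference was, in log2 units, 3.51 ± 0.70 against F4/80-low (adjusted p = 0.0077) and 2.00 ± 0.63 against non-cystic regions (adjusted p = 0.0304). Without that library the value against non-cystic regions was 3.13 and without kidney 3 it was 2.96. The call against non-cystic regions was lost without kidney 1, kidney 2, either library of non-cystic kidney 1, the first of non-cystic kidney 2, the second of non-cystic kidney 3 or the first of F4/80-low kidney 2 (adjusted p of 0.05 to 0.213), and that against F4/80-low regions without kidney 1 (adjusted p = 0.0868). The call against non-cystic regions was also lost with sums without the kidney block (adjusted p = 0.135) and with the libraries labelled 1 alone (adjusted p = 0.291). The 15 macrophage markers were, like Hk3, all called higher in F4/80-high regions in both comparisons. In F4/80-low against non-cystic regions 9 of the 15 were called higher, with a median log2 fold change of 2.005. Hk3 had a negative value there, at -1.51 ± 0.75, and was not called (adjusted p = 0.492). The part of these markers in the result was not tested.

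Hk1, the form found in most cell types, was the hexokinase with the highest level per kilobase in every region type and did not pass the test. It had 15.0, 21.3 and 24.8 CPM in F4/80-high regions, against 28.8, 24.8 and 14.3 CPM in F4/80-low and 20.9, 27.5 and 24.4 CPM in non-cystic regions, with full overlap. Its share of the 4 hexokinases per kilobase was 54.7% ± 9.13 (SD, n = 3) in F4/80-high, against 78.5% ± 8.95 in F4/80-low and 82.3% ± 6.71 in non-cystic regions. The share of Hk2 was 18.8% ± 8.37, against 8.96% ± 5.49 and 0.783% ± 0.379 in the same order. Hkdc1, a hexokinase relative, stayed between 1.43 and 2.93 CPM in all 9 sums.

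**Figure D4:**
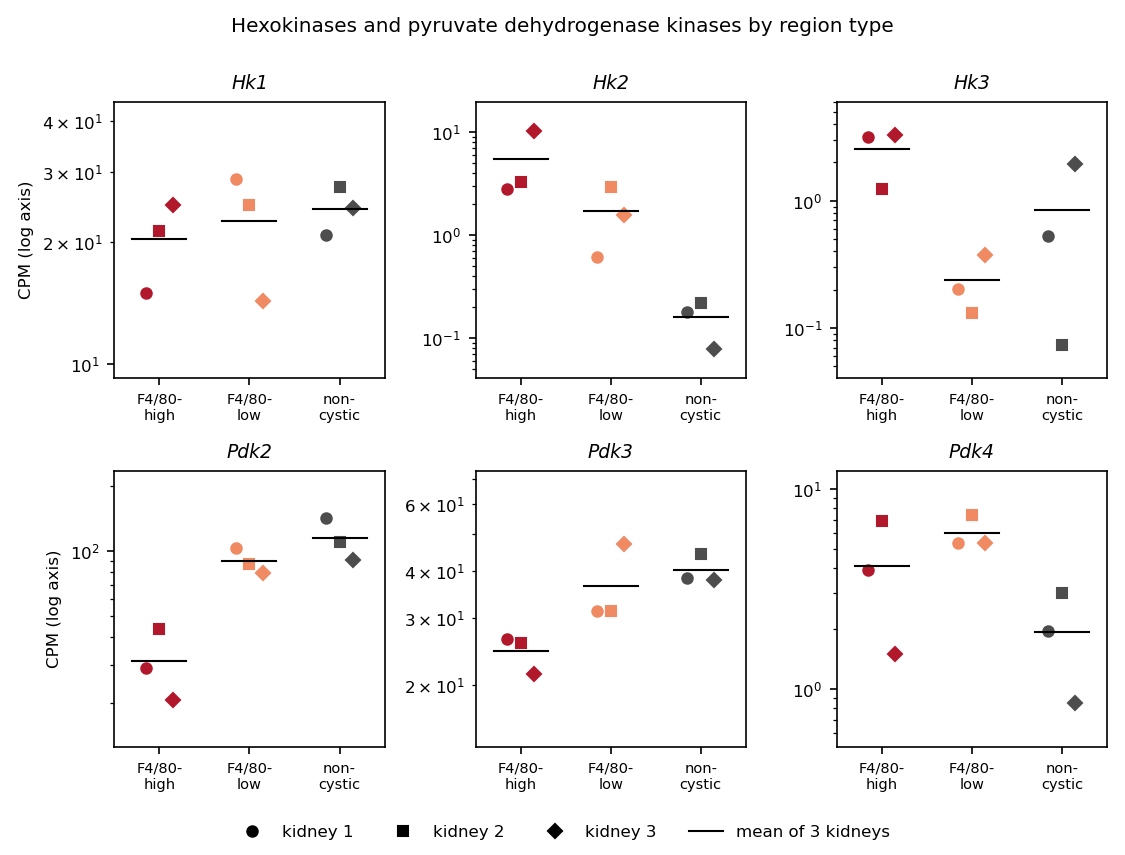
Level in CPM on a log axis of Hk1, Hk2, Hk3, Pdk2, Pdk3 and Pdk4 in F4/80-high, F4/80-low and non-cystic regions; points are the 3 kidneys and bars their mean. Hk2 averages 5.48 CPM in F4/80-high, 1.72 CPM in F4/80-low regions and 0.158 CPM in non-cystic regions, and Pdk2 averages 31.1, 89.8 and 114 CPM in the same order.

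Phosphofructokinase-1, the main control point of glycolysis, is built from 3 subunit types, of which Pfkm was called lower and Pfkp higher against non-cystic regions. Pfkm, the muscle type, had 7.52, 5.4 and 8.01 CPM in F4/80-high regions, against 15.0, 12.8 and 10.1 CPM in F4/80-low and 19.9, 20.3 and 14.9 CPM in non-cystic regions. All F4/80-high kidneys were below all others, while F4/80-low and non-cystic regions overlapped. In the fit the log2 fold change was -1.39 ± 0.24 against non-cystic (adjusted p = 0.00181) and -0.84 ± 0.24 against F4/80-low regions (adjusted p = 0.0297), where the call was lost without kidney 1, kidney 2, the second library of F4/80-low kidney 3 or the second of F4/80-high kidney 1 (adjusted p of 0.0507 to 0.202). With total counts as the scaling neither was called (adjusted p = 0.0607 and 0.381), and the call against F4/80-low regions was also lost with upper quartile factors, with only the compared region types and with the libraries labelled 1 or 2 alone (adjusted p of 0.055 to 0.248). Pfkp, the platelet type, had 33.8, 48.0 and 42.0 CPM in F4/80-high regions, against 28.6, 59.0 and 35.4 CPM in F4/80-low and 20.3, 34.7 and 31.4 CPM in non-cystic regions. Within each kidney F4/80-high exceeded non-cystic, while the groups overlapped. The fitted log2 fold change was 0.54 ± 0.17 (adjusted p = 0.0307) and adjusted p was 0.0508 to 0.214 without kidney 1, kidney 2 or any of 7 single libraries. The call was also lost with the kidney as a random effect (adjusted p = 0.0566), with sums without the kidney block (adjusted p = 0.164) and with the libraries labelled 2 alone (adjusted p = 0.458). The single libraries were the first of F4/80-high kidney 2, of F4/80-low kidneys 1, 2 and 3 and of non-cystic kidney 3, and the second of F4/80-high kidney 1 and non-cystic kidney 1. Pfkl, the liver type, had 20.7 ± 4.53 CPM in F4/80-high, 31.0 ± 7.53 CPM in F4/80-low regions and 23.3 ± 5.17 CPM in non-cystic kidney regions (SD, n = 3), and was not called.

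Per kilobase, Pfkm made up 25.7% ± 6.87 (SD, n = 3) of the 3 subunits in F4/80-high, against 33.6% ± 8.26 in F4/80-low and 49.1% ± 2.14 in non-cystic regions. Pfkp made up 37.1% ± 2.52 in F4/80-high, against 26.1% ± 5.44 in F4/80-low and 19.6% ± 6.01 in non-cystic regions. These shares depend on the length used, all annotated exons of a gene merged, which was 13401 bases for Pfkp and 3340 for Pfkm. In CPM, without regard to length, Pfkp had the highest mean of the 3 subunits in every region type (28.8 in non-cystic regions, against 18.3 for Pfkm). The log2 change of Pfkm minus that of Pfkp was -2.12, -2.35 and -1.30 in the 3 kidneys, in F4/80-high against non-cystic regions. Exons of Pfkp share 5.58% of their bases with a gene on the other strand and those of Pfkm 10.2% with a noncoding gene on the same strand. The number of reads in the shared bases was not measured.

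Of the 10 genes of the reversible steps, 8 were lower in F4/80-high against non-cystic regions (median of the 10, -0.95) and 5 were lower against F4/80-low regions (median -0.78). Gapdh, the glyceraldehyde-3-phosphate dehydrogenase (chr6:125161715-125166467), had 286, 577 and 350.2 CPM in F4/80-high regions, against 656, 872 and 737 CPM in F4/80-low and 1147, 1009 and 733 CPM in non-cystic regions. Its log2 fold change was -1.30 ± 0.30 against non-cystic (adjusted p = 0.00763) and -0.94 ± 0.30 against F4/80-low regions (adjusted p = 0.0447). Tpi1, the triosephosphate isomerase, had 218, 314 and 139.7 CPM in F4/80-high regions, against 448, 477 and 528 CPM in F4/80-low and 628, 532 and 485 CPM in non-cystic regions, with log2 fold changes of -1.33 ± 0.29 and -1.17 ± 0.29 (adjusted p = 0.00595 and 0.0189). For both genes all kidney values of F4/80-high were below all others. Pgk1, which makes ATP at the phosphoglycerate kinase step, had 108, 133 and 79.4 CPM in F4/80-high, against 165, 193 and 180.1 CPM in F4/80-low and 247, 224 and 221 CPM in non-cystic regions. It was the one gene of this set whose call against non-cystic regions (-1.14 ± 0.21, adjusted p = 0.00261) held in all 34 alternative analyses.

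Aldoa, the aldolase of most tissues, had 311, 549 and 291 CPM in F4/80-high regions, against 599, 786 and 597 CPM in F4/80-low and 744, 843 and 637 CPM in non-cystic regions. Its log2 fold change was -1.0 ± 0.25 against non-cystic (adjusted p = 0.0106) and -0.83 ± 0.25 against F4/80-low regions (adjusted p = 0.0375). Gpi1, the glucose-6-phosphate isomerase, was lower by a similar amount, at 85.5 ± 18.2 CPM in F4/80-high, against 147 ± 18.5 CPM in F4/80-low regions and 159 ± 14.9 CPM in non-cystic kidney regions (SD, n = 3). Eno1, the main enolase, had 392, 667 and 394 CPM in F4/80-high, against 779, 851 and 687 CPM in F4/80-low and 1064, 860.3 and 636 CPM in non-cystic regions, and kidney 2 of F4/80-high overlapped kidney 3 of non-cystic. Its log2 fold change against non-cystic regions was -0.83 ± 0.28 (adjusted p = 0.0409). Pgam1 (-0.78 ± 0.20, adjusted p = 0.0106) and Aldoc (-1.07 ± 0.33, adjusted p = 0.0267), the phosphoglycerate mutase and a second aldolase, were lower against non-cystic regions and not called against F4/80-low regions. The neuronal enolase Eno2 had 63 counts in F4/80-high, 14 in F4/80-low and 12 in non-cystic regions (log2 fold change 1.83 ± 0.82 against non-cystic, adjusted p = 0.106), and the muscle enolase Eno3 averaged 2.98, 2.35 and 3.01 CPM in the same order.

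Most calls of the reversible steps depended on single kidneys or libraries. Without kidney 1 the calls of Gpi1, Aldoa, Aldoc, Tpi1, Gapdh, Pgam1 and Eno1 against non-cystic regions were lost, with adjusted p of 0.0671 to 0.324 among all 11 members lost there. Aldoa and Eno1 also lost it without kidney 2 and Aldoc without kidney 3. Single libraries whose removal ended a call were, for Eno1, the second of each F4/80-high kidney, the first of F4/80-low kidneys 2 and 3 and the second of non-cystic kidney 2 (adjusted p from 0.0502). For Aldoc they were the first of F4/80-high kidney 1, the second of F4/80-high kidney 2, the first of F4/80-low kidneys 1 and 2 and the second of non-cystic kidney 2 (from 0.0709). Against F4/80-low regions Gapdh, Aldoa and Pgk1 lost the call without any 1 of the 3 kidneys, Gpi1 without kidney 1 or 2 and Tpi1 without kidney 1, with adjusted p up to 0.207. There the single libraries were the second of F4/80-high kidney 1 for Pgk1. For Aldoa they were the first of F4/80-high kidney 1, the second of F4/80-high kidneys 2 and 3 and the first of F4/80-low kidney 2. For Gapdh they were the second of each F4/80-high kidney, the first of each F4/80-low kidney, the first of non-cystic kidney 1 and the second of non-cystic kidney 3. Other settings ended some of these calls too. Against non-cystic regions, the libraries labelled 1 alone ended those of Aldoa, Aldoc, Pgam1 and Eno1, and those labelled 2 alone ended those of Aldoc and Eno1, as did only the compared region types (adjusted p of 0.0551 to 0.545). Eno1 also lost it with upper quartile factors (adjusted p = 0.0609), and Aldoc in the 3 fits of 18 libraries and with sums without the kidney block (adjusted p of 0.0504 to 0.114). Against F4/80-low regions all 5 calls were lost with only the compared region types, all but that of Tpi1 with total counts and with the libraries labelled 1 alone, those of Aldoa and Gapdh with upper quartile factors and with the libraries labelled 2 alone, that of Aldoa with sums without the kidney block and that of Gapdh with DESeq2's size factors (adjusted p of 0.0515 to 0.195). With total counts as the scaling, the 8 genes kept negative values against non-cystic regions, from -0.73 (Tpi1) to -0.17 (Pgam1), all below the median of all genes, and 3 (Tpi1, Gapdh and Pgk1) were called. Against F4/80-low regions Pgam1 turned to 0.07 under that scaling. For each 1000 CPM of the proximal tubule markers there were 62.2, 68.4 and 288 CPM of Gapdh in F4/80-high, against 17.8, 22.5 and 11.2 in F4/80-low and 18.9, 22.3 and 16.3 in non-cystic regions. Gapdh was thus reduced less than the marker sum in every kidney. Markers of other tubule segments were lower in F4/80-high against non-cystic regions too. Of 8 thick ascending limb markers 5 were lower (median -1.42), with sums of 406 to 1186 CPM in F4/80-high, 1979 to 4360 CPM in F4/80-low and 1790 to 2485 CPM in non-cystic kidneys. Of 6 distal and connecting tubule markers 5 were lower (median -3.23), with sums of 211 to 1024 CPM in F4/80-high, 795 to 2212 CPM in F4/80-low and 2861 to 5933 CPM in non-cystic kidneys. Of 10 collecting duct markers 3 were lower (median -1.78). All of these markers had counts in every region type, and their part in the values of the reversible steps was not tested. Gapdh has 93 near-identical genes in the annotation, 89 of them pseudogenes. The rows of 4 of these genes held 0.226% as many counts as Gapdh itself. Reads shared with near-identical genes that have no row could not be counted.

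**Figure D5:**
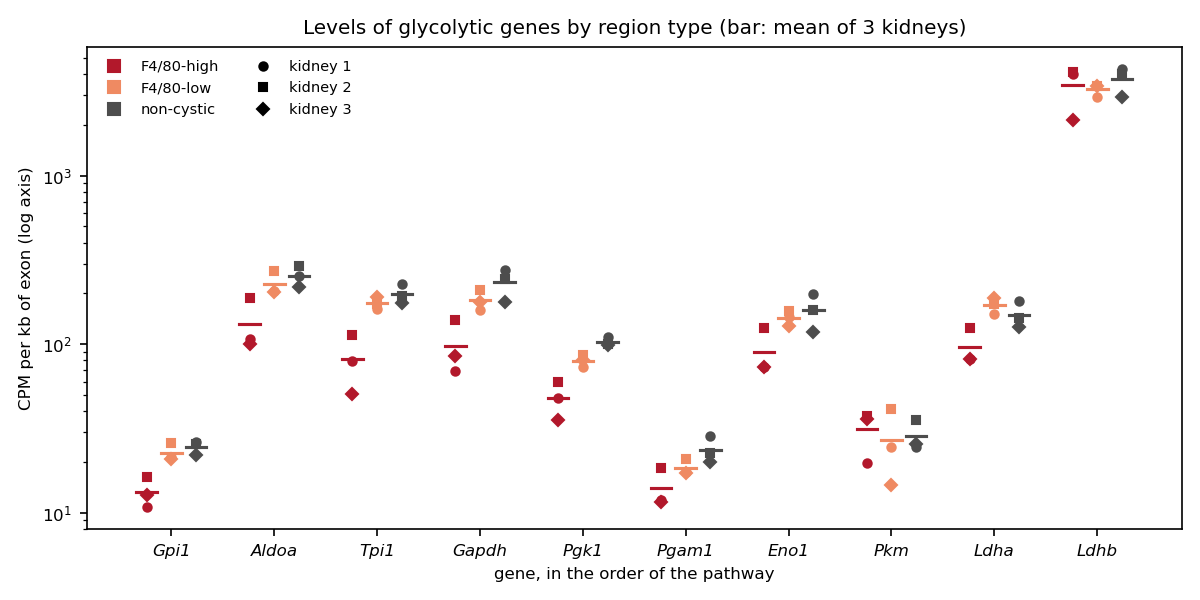
Level in CPM per kilobase of exon on a log axis of Gpi1, Aldoa, Tpi1, Gapdh, Pgk1, Pgam1, Eno1, Pkm, Ldha and Ldhb in F4/80-high, F4/80-low and non-cystic regions; points are the 3 kidneys. The steps from Gpi1 to Eno1 have lower means in F4/80-high than in non-cystic regions, with an overlap for Eno1 (Aldoa averages 132, 227 and 255 CPM per kilobase in F4/80-high, F4/80-low and non-cystic regions), Pkm and Ldhb overlap between region types, and with total counts as the scaling the differences of these steps shrink to between -0.73 and -0.17 on the log2 scale against non-cystic regions.

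At the end of the pathway neither pyruvate kinase gene passed a test. Pkm, the form of most tissues and of growing cells, had 98.8, 188 and 181 CPM in F4/80-high regions, against 123, 206 and 73.4 CPM in F4/80-low and 122, 177 and 128 CPM in non-cystic regions, with full overlap (log2 fold change against non-cystic 0.13 ± 0.29, adjusted p = 0.759). Pklr, the liver and red cell form, averaged 9.85 ± 0.675 CPM in F4/80-high, 10.4 ± 2.83 CPM in F4/80-low regions and 6.86 ± 2.67 CPM in non-cystic kidney regions (SD, n = 3). Exons of Pklr share 22.0% of their bases with Hcn3 on the other strand, so its level is uncertain. With total counts as the scaling Pklr was called higher against non-cystic regions, at 1.16 (adjusted p = 0.015), above the median of all genes.

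Ldhb, the lactate dehydrogenase subunit typical of tissues that take up lactate, was the most abundant member per kilobase in every region type (chr6:142490249-142507957). It had 6340, 6480 and 3367 CPM in F4/80-high regions, against 4609, 5365 and 5363 CPM in F4/80-low and 6759, 6292 and 4576 CPM in non-cystic regions. The groups overlapped, and its log2 fold change was -0.15 ± 0.37 against non-cystic (adjusted p = 0.785) and 0.01 ± 0.38 against F4/80-low regions (adjusted p = 0.982). For each 1000 CPM of the proximal tubule markers there were 1382, 768 and 2770 CPM of Ldhb in F4/80-high, against 125, 138 and 81.5 in F4/80-low and 112, 139 and 102 in non-cystic regions. Ldha, the subunit typical of glycolytic tissue, had 271, 414 and 269 CPM in F4/80-high regions, against 501, 569.9 and 624 CPM in F4/80-low and 594, 472 and 417 CPM in non-cystic regions. It was lower against F4/80-low regions (-0.85 ± 0.27, adjusted p = 0.0454), a call lost without any 1 of the 3 kidneys and without 10 of the 18 single libraries (adjusted p of 0.0504 to 0.169). It was also lost with each other scaling, with only the compared region types and with the libraries labelled 1 or 2 alone (adjusted p of 0.0502 to 0.16). Ldha was not called against non-cystic regions (-0.65 ± 0.27, adjusted p = 0.0811). The 10 were both libraries of F4/80-high kidney 1, the second of F4/80-high kidneys 2 and 3, the second of F4/80-low kidney 1, the first of F4/80-low kidneys 2 and 3, the first of non-cystic kidneys 1 and 2 and the second of non-cystic kidney 3. Ldhb made up 97.1% ± 0.833 (SD, n = 3) of both subunits per kilobase in F4/80-high, against 95% ± 0.226 in F4/80-low and 96.1% ± 0.376 in non-cystic regions.

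Pyruvate dehydrogenase kinases inactivate the enzyme that feeds pyruvate into the citric acid cycle. Pdk2 (chr11:95026258-95041354), the member with the smallest adjusted p of the 38 in both comparisons of F4/80-high regions, had 28.9, 43.9 and 20.6 CPM in F4/80-high regions, against 103, 87.3 and 79.3 CPM in F4/80-low and 142, 110.2 and 90.8 CPM in non-cystic regions. All 6 F4/80-high libraries, at 19.1 to 49.2 CPM, were below all F4/80-low (51.5 to 115 CPM) and all non-cystic libraries (89.5 to 143 CPM). The fitted log2 fold change was -1.90 ± 0.23 against non-cystic (adjusted p = 0.000308) and -1.57 ± 0.22 against F4/80-low regions (adjusted p = 0.00213), and both calls held in all 34 alternative analyses. For each 1000 CPM of the proximal tubule markers there were 6.31, 5.20 and 16.9 CPM of Pdk2 in F4/80-high, against 2.79, 2.25 and 1.21 in F4/80-low and 2.34, 2.43 and 2.02 in non-cystic regions, so Pdk2 was reduced less than the sum.

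Pdk3 had 26.4, 25.9 and 21.4 CPM in F4/80-high regions, against 31.3, 31.3 and 47.1 CPM in F4/80-low and 38.2, 44.3 and 37.8 CPM in non-cystic regions. It was lower against non-cystic regions (-0.70 ± 0.20, adjusted p = 0.0204), a call lost without kidney 1, kidney 2 or the second library of F4/80-high kidney 1 (adjusted p of 0.0673 to 0.106), with the libraries labelled 1 or 2 alone (adjusted p = 0.0819 and 0.0678) and with total counts (-0.10, adjusted p = 0.674). Pdk4, the form induced by fasting, had 3.94, 6.93 and 1.49 CPM in F4/80-high regions, against 5.37, 7.36 and 5.34 CPM in F4/80-low and 1.94, 3.00 and 0.854 CPM in non-cystic regions. It was higher than non-cystic within every kidney in both cystic region types, and neither difference passed the test, at 1.03 ± 0.39 for F4/80-high (adjusted p = 0.0623) and 1.80 ± 0.40 for F4/80-low regions (adjusted p = 0.0634). With total counts as the scaling Pdk4 was called higher in F4/80-high against non-cystic regions, at 1.62 (adjusted p = 0.007). That scaling also called it in F4/80-low against non-cystic regions, at 1.92 (adjusted p = 0.0458). Of 34 alternatives, 6 called Pdk4 in F4/80-high and 7 in F4/80-low against non-cystic regions. Pdk1 averaged 9.12 ± 2.04 CPM in F4/80-high, 10.9 ± 1.26 CPM in F4/80-low regions and 14.7 ± 6.52 CPM in non-cystic kidney regions (SD, n = 3) and was not called. Pdk2 made up 44.3% ± 5.59 of the 4 kinases per kilobase in F4/80-high, against 62.0% ± 7.07 in F4/80-low and 66.1% ± 5.99 in non-cystic regions.

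The oxidative pentose phosphate genes did not pass the tests. G6pdx, the glucose-6-phosphate dehydrogenase, had 24.9, 25.1 and 31.6 CPM in F4/80-high regions, against 21.5, 28.5 and 23.6 CPM in F4/80-low and 19.8, 22.7 and 19.5 CPM in non-cystic regions. All 3 kidneys of F4/80-high were above all of non-cystic regions, with a log2 fold change of 0.40 ± 0.17 (adjusted p = 0.0951); with total counts as the scaling it was called, at 1.02 (adjusted p = 0.00472). Exons of G6pdx share 13.6% of their bases with Ikbkg on the other strand. Pgd, the next enzyme, had 41.9 ± 7.42 CPM in F4/80-high, 60.5 ± 11.1 CPM in F4/80-low regions and 54.9 ± 5.48 CPM in non-cystic kidney regions (SD, n = 3), with a log2 fold change of -0.41 ± 0.19 against non-cystic (adjusted p = 0.111) and -0.53 ± 0.19 against F4/80-low regions (adjusted p = 0.0655).

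The enzymes that set fructose 2,6-bisphosphate, an activator of phosphofructokinase-1, were low and none was called. Pfkfb3, the most abundant, averaged 10.1 ± 2.53 CPM in F4/80-high, 8.92 ± 2.01 CPM in F4/80-low regions and 8.31 ± 1.27 CPM in non-cystic kidney regions (SD, n = 3). Pfkfb4 had 3.58, 5.0 and 8.12 CPM in F4/80-high, against 4.49, 2.56 and 2.03 CPM in F4/80-low and 3.45, 2.05 and 3.26 CPM in non-cystic regions, with a log2 fold change of 0.95 ± 0.42 against non-cystic regions (adjusted p = 0.104). With total counts it was called, at 1.58 (adjusted p = 0.0204). Pfkfb1, Pfkfb2 and Tigar, a phosphatase of the same substrate, stayed between 0.366 and 4.47 CPM in all sums.

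The summed level of the gluconeogenic genes, per kilobase, was 5.84%, 4.74% and 1.72% of that of gluconeogenic and glycolytic genes together in F4/80-high regions, against 22.4%, 16.4% and 18.2% in F4/80-low and 23.7%, 19.1% and 22.3% in non-cystic regions. With Ldhb left out, because it dominates the glycolytic sum, the share was 22.2% ± 13.5 (SD, n = 3) in F4/80-high, 48.5% ± 5.21 in F4/80-low and 53.1% ± 3.22 in non-cystic regions. In order of level per kilobase, Ldhb, Fbp1 and Khk led in non-cystic regions, with means of 3742, 1024 and 585 CPM per kilobase. Pck1 and G6pc were 8th and 9th there. In F4/80-high regions the order was Ldhb (3437), Aldoa (132) and Fbp1 (122), with the kidneys of the last pair overlapping, and Pck1 and G6pc were 14th and 15th, at 12.5 and 11.4 CPM per kilobase. Hk2 was last of the 38 in non-cystic and 33rd in F4/80-high regions.

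In F4/80-low against non-cystic regions no member passed edgeR's test, and Hk2 and Pdk4, described above, had the smallest adjusted p. Of 38 log2 fold changes, 13 were positive and 25 negative, with a median of -0.14 beside 0.00 over all genes. Pck1 was at -0.39 ± 0.46 (adjusted p = 0.857), Fbp1 at -0.34 ± 0.64 (adjusted p = 0.921), G6pc at -0.84 ± 0.69 (adjusted p = 0.761) and Khk at -0.18 ± 0.44 (adjusted p = 0.941). The 95% interval of Pck1 ran from -1.42 to 0.65 and that of Fbp1 from -1.82 to 1.14, so changes of that size were not detectable here. Pgk1, at 159 to 200.2 CPM in F4/80-low and 218 to 254 CPM in non-cystic libraries, was the one member whose libraries were all lower, and Hk2 the one whose libraries were all higher. Over all genes tested, 0.418% had all libraries lower and 1.78% all higher. In the same comparison 5 of 8 injured tubule, 9 of 15 macrophage and 5 of 9 fibroblast and matrix markers tested were called higher. The sums of the injured tubule and macrophage markers are given above, and those of the fibroblast and matrix markers were 1717 to 2938 CPM in F4/80-high, 530.0 to 750.0 CPM in F4/80-low and 106 to 178 CPM in non-cystic kidneys. Their part in the values of Hk2 and Pdk4 was not tested.

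Other genes of carbohydrate metabolism are given by list, to be read beside 19.5% lower and 19.7% higher among all genes tested. In F4/80-high against non-cystic regions, 4 of 8 other pentose phosphate genes tested were lower and none higher (median log2 fold change -0.58), among them Tkt, the transketolase (-0.67 ± 0.19, adjusted p = 0.0179), and Taldo1, the transaldolase (-0.75 ± 0.21, adjusted p = 0.02). Of 19 other genes of glycolysis and gluconeogenesis tested, 10 were lower and 3 higher (median -0.82). Pcx, the pyruvate carboxylase that starts gluconeogenesis from pyruvate, was at 22.1 ± 14.4 CPM in F4/80-high and 215 ± 35.6 CPM in non-cystic kidney regions (SD, n = 3), and was lower by the test, at -3.39 ± 0.49 (adjusted p = 0.00162). Slc37a4, which carries glucose 6-phosphate to glucose-6-phosphatase, was at -2.31 ± 0.32 (adjusted p = 0.000644). Of 6 fructose and polyol genes, 3 were lower and 1 higher. Sord, the sorbitol dehydrogenase, was lower (-3.23 ± 0.48, adjusted p = 0.000984), and Akr1b8, an aldo-keto reductase, was higher, at 46.9 ± 4.32 CPM in F4/80-high against 8.80 ± 0.492 CPM in non-cystic regions (SD, n = 3).

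Of 10 genes of pyruvate entry into mitochondria, 8 were lower and 1 higher (median -1.25), including Mpc1, a subunit of the mitochondrial pyruvate carrier (-2.0 ± 0.28, adjusted p = 0.000653), and Pdha1 and Dlat of the pyruvate dehydrogenase complex (-1.45 and -1.24). Of 16 glycogen genes 7 were lower and 2 higher (median -0.56), and of 20 hypoxia response genes 4 were lower and 2 higher (median 0.05), near the share of all genes for the lower and below it for the higher ones. Of 23 transcription regulators of these enzymes 9 were lower and 5 higher. Hnf4a, a regulator of the proximal tubule programme, was at -2.06 ± 0.31 (adjusted p = 0.00101), and Klf15, which is regulated by glucocorticoids and fasting, was at -2.78 ± 0.25 (adjusted p = 8.57e-05). Hnf4a is itself among the 20 proximal tubule markers. In F4/80-low against non-cystic regions edgeR called no gene of these 7 lists, which held 8, 19, 6, 10, 16, 20 and 23 genes tested. At an unadjusted p below 0.05 in that test, 11 were higher and 3 lower. Among all genes tested, 9.35% were higher and 2.35% lower at that threshold.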

How the data were processed

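RNA-seq counts per gene were analysed for 18 libraries, 2 for each of 3 kidneys and 3 region types. The table deposited by the authors holds whole-number read counts, not normalized. Per the submitters' processing notes, the tools were FastQC 0.11.9, fastp 0.20.1 and HTSeq 0.11.0 and the build mm10 (GRCm38); for the aligner, the strand setting and the annotation release the sources used here give nothing. Per the labels' protocols, extraction used TRI reagent and library preparation a low-input kit without strand marking, so genes that overlap on opposite strands cannot be told apart.

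For each kidney and region type the 2 libraries were added up, since both come from 1 kidney; no pair of libraries was identical, and chi-square per degree of freedom over genes was 13.7 to 99.2. The resulting 9 sums went into edgeR 4.0.16 (R 4.3.3): filterByExpr (16034 genes, 99.8% of counts), trimmed mean of M values, robust quasi-likelihood fit with region type and kidney as terms and 4 residual degrees of freedom, and Benjamini-Hochberg adjustment over all genes tested. Each SE was obtained by dividing the log2 fold change by the root of the F statistic. Log2 changes by kidney used a prior count of 2. Limma 3.58.1 and DESeq2 1.42.0 served as alternatives, 34 in all. The edgeR script was tested on simulated data.

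The members and gene lists were chosen with earlier results of these data known. All 38 members could be named; from each other list, up to 6 genes with the smallest p in F4/80-high against non-cystic regions. Identifiers without a symbol (127, with 0.00837% of counts) were fitted but not named. Depth limits precision as counting error, since the reads carry no molecular identifiers. Promoter windows are from RefSeq on GRCm38.p6 and exon lengths, gene positions and overlaps from GENCODE on GRCm38. The exon length of a gene is that of all its annotated exons merged, which can exceed the length of the transcripts present. Values, shares and ranks per kilobase that compare genes carry this limit. Near-identical genes matched over at least 200 bases at 95% identity or more. Same-numbered libraries of a kidney did not pair: the median correlation of their deviations was 0.057, beside 0.076 for differently numbered ones of the same kidney.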

Additional observations from a re-analysis of the deposited data

Results flagged for a closer look

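Of 114 groups of 6 libraries (38 genes in 3 region types), 10 held a library set far apart from the other 5 on the log2(CPM + 0.5) scale; chance flags about 1 in 20 groups, or 5%. Of the 10, 5 came from the first library of F4/80-high kidney 1. In that library Pfkl had 8.97 CPM, against 21.0 to 29.2 CPM in the other F4/80-high libraries, Pkm had 63.4 CPM, against 143 to 224 CPM, Pgd had 27.1 CPM, against 42.1 to 53.9 CPM, and Eno2 had 0.102 CPM (1 count), against 0.986 to 2.02 CPM. Pfkfb2 was high there, at 4.28 CPM, against 2.08 to 2.5 CPM.

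Among F4/80-low libraries, Fbp1 had 640.0 CPM in the second library of kidney 2, against 1168 to 1562 CPM in the others, and Pfkm had 5.85 CPM in the first library of kidney 3, against 12.3 to 17.4 CPM. Among non-cystic libraries, Pgk1 had 254 CPM in the second library of kidney 1, against 218 to 228 CPM in the others. G6pdx had 25.6 CPM in the first library of kidney 2, against 18.3 to 20.5 CPM, and Pdk4 had 0.234 CPM (2 counts) in the first library of kidney 3, against 1.78 to 3.63 CPM.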

How the results depend on the processing

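Members called were counted again under 34 alternatives. In F4/80-high against non-cystic regions, 3 were higher; 5 were with upper quartile factors, 9 with total counts, 5 with 18 libraries and a kidney block and 1 with sums without the kidney block, and 1 (without kidney 1 or 2) to 5 (without kidney 3) with a kidney or library left out. There 15 were lower, against 8 with total counts, 8 with the libraries labelled 1 alone, and 6 (without kidney 1) to 16 with a kidney or library left out. In F4/80-high against F4/80-low regions, 1 was higher, against 3 with total counts, 2 with no filter, 0 with a stricter filter, 2 with DESeq2's Wald test, 3 with 18 libraries and a kidney block, 3 with the kidney as a random effect, and 0 (without kidney 1) to 2 with a kidney or library left out. There 12 were lower, against 6 with total counts, 4 with only the compared region types, 3 with the libraries labelled 1 alone, and 1 (without kidney 1) to 14 with a kidney or library left out. In F4/80-low against non-cystic regions, 0 were higher, against 1 with total counts, 2 with no filter, 2 with DESeq2's Wald test, 2 with 18 libraries and a kidney block, and 0 to 1 with a kidney or library left out; 0 were lower in every alternative run. With a replicate block on 18 libraries, 6 were higher and 15 lower in F4/80-high against non-cystic, 2 higher and 15 lower in F4/80-high against F4/80-low, and 2 higher in F4/80-low against non-cystic regions; fits of 18 libraries treat libraries of 1 kidney as separate samples. Over all genes, the libraries labelled 1 alone gave 1941 higher and 1766 lower in F4/80-high against non-cystic regions. Against F4/80-low regions they gave 894 and 1011, and only the compared region types gave 1120 and 1293. A kidney block on 18 libraries gave 3921 and 3607 against non-cystic and 2687 and 2939 against F4/80-low regions. Sums without the kidney block gave 3216 and 3139 against non-cystic regions. Other all-gene counts are given above. No called member reversed. The cause of these moves in the counts was not tested. Fits with a kidney or library left out also hold fewer data. Genes at a few counts, such as Hk2 in non-cystic regions, carry large counting error.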
